A study of Homo sapiens with 4 samples.

Results

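The genes described here are 10 members of the ADAMTS family, secreted metalloproteases with thrombospondin repeats: the aggrecan-cleaving ADAMTS4 and ADAMTS5 and their relatives ADAMTS1, ADAMTS6, ADAMTS7, ADAMTS9, ADAMTS12, ADAMTS15, ADAMTS16 and ADAMTS17. They were chosen by symbol and are 10 of the 19215 genes in the deposited table, which holds 19 ADAMTS proteases in all. RNA-seq was made from C28/I2 cells, an immortalised human chondrocyte line, after 48 h with 25 ng/mL FABP4, the fatty acid-binding protein that fat cells secrete, or after 48 h with 0.5% DMSO. Each condition has 2 libraries, both were grown with 10% serum, and whether DMSO was also in the FABP4 cultures is not in the labels. Everything comes from 1 cell line. No source used here says that the 2 libraries of a condition were separate cultures, so a p-value here covers the spread between libraries, which may be technical.

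ADAMTS proteases are made as inactive precursors, are activated by proprotein convertases such as furin, and cut large matrix molecules outside the cell. In cartilage they are best known for cutting aggrecan, the proteoglycan that holds water in the tissue, and ADAMTS4 and ADAMTS5 are the aggrecanases most studied in osteoarthritis. ADAMTS1, ADAMTS9 and ADAMTS15 are close relatives that cut versican, a related proteoglycan, and can also cut aggrecan. ADAMTS7 and ADAMTS12 cut cartilage oligomeric matrix protein, ADAMTS6 and ADAMTS17 are linked to fibrillin microfibrils, and ADAMTS16 cuts fibronectin. TIMP3 is the tissue inhibitor that blocks the aggrecanases, and the scavenger receptor LRP1 removes them from the matrix.

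All 10 genes carry the codons of the same catalytic centre, in which histidines hold a zinc ion beside a glutamate needed to break the substrate bond. These codons are shown because they encode what makes the gene products metalloproteases and because they show which genes are most alike in this stretch. Each line gives 36 coding bases of the GENCODE 29 transcript with the longest coding sequence (GRCh38), 5′ to 3′. Capitals mark the codons of the zinc-binding histidines and the glutamate, and the coordinates run from the first to the last base with the intron between them included.
ADAMTS4 (chr1:161195610-161196180, minus strand): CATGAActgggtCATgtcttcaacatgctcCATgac
ADAMTS5 (chr21:26943522-26954748, minus strand): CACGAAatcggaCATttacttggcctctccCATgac
ADAMTS1 (chr21:26841140-26841867, minus strand): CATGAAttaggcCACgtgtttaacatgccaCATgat
ADAMTS15 (chr11:130461612-130462112, plus strand): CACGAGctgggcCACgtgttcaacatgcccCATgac
ADAMTS9 (chr3:64651145-64654369, minus strand): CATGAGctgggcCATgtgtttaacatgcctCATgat
ADAMTS7 (chr15:78788356-78789705, minus strand): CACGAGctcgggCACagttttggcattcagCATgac
ADAMTS12 (chr5:33649679-33658200, minus strand): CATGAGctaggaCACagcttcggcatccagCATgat
ADAMTS6 (chr5:65300113-65329394, minus strand): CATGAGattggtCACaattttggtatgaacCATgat
ADAMTS16 (chr5:5191774-5200150, plus strand): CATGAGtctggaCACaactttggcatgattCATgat
ADAMTS17 (chr15:100155302-100199334, minus strand): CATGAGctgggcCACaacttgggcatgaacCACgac
An intron splits the stretch in every gene, after base 10 in 4 genes (ADAMTS1, ADAMTS4, ADAMTS5 and ADAMTS15) and after base 17 in the other 6. Most alike were ADAMTS9 with ADAMTS1 and ADAMTS9 with ADAMTS15, with 31 of 36 bases equal in each pair, while ADAMTS7 and ADAMTS12 shared 29. ADAMTS4 and ADAMTS5, the main aggrecanases, shared 22 of the 36.

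ADAMTS12 and ADAMTS7 led the 10 genes in C28/I2 cells, and ADAMTS4 and ADAMTS5 were at the edge of detection in both conditions. Levels are FPKM, which divide the fragments of a gene by its transcript length and by the size of the library, so they can be set side by side between genes. Averaged over the 4 libraries, the level was 11.6 FPKM for ADAMTS12, 7.12 for ADAMTS7, 5.45 for ADAMTS15, 3.89 for ADAMTS6, 2.15 for ADAMTS16 and 1.39 for ADAMTS1. It was 0.625 FPKM for ADAMTS9, 0.547 for ADAMTS17, 0.0225 for ADAMTS4 and 0.0025 for ADAMTS5. The ranges over the 4 libraries did not overlap between ADAMTS12 and ADAMTS7, between ADAMTS15 and ADAMTS6, between ADAMTS6 and ADAMTS16, between ADAMTS1 and ADAMTS9 or between ADAMTS17 and ADAMTS4. They overlapped between ADAMTS7 and ADAMTS15, ADAMTS16 and ADAMTS1, ADAMTS9 and ADAMTS17, and ADAMTS4 and ADAMTS5, although ADAMTS7 stood above ADAMTS15 and ADAMTS16 above ADAMTS1 within each of the 4 libraries. The genes with the intron after base 10 of the catalytic codons differed widely in level: ADAMTS15 and ADAMTS1 stood above 1 FPKM in every library, while neither ADAMTS4 nor ADAMTS5 exceeded 0.05 FPKM in any.

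**Figure D1:**
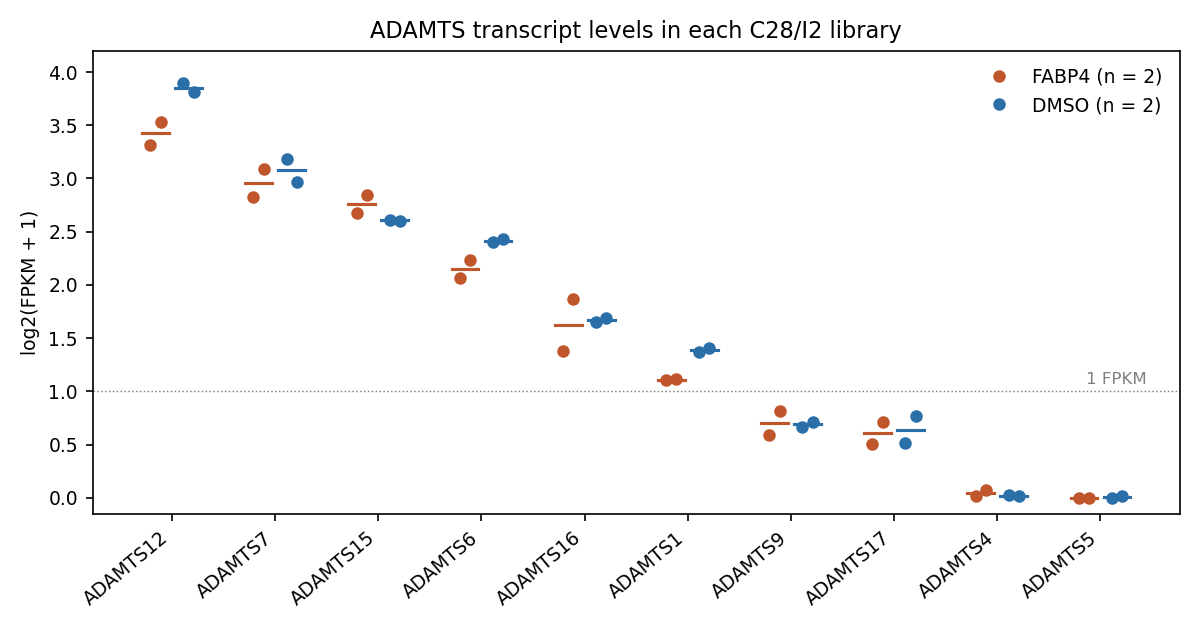
Level of each ADAMTS gene as log2(FPKM + 1) on the vertical axis, with genes from highest to lowest mean level along the horizontal axis; points are single libraries (FABP4 left, DMSO right), short lines are means of 2 libraries, and the dotted line marks 1 FPKM. ADAMTS12 is highest in every library, and ADAMTS4 and ADAMTS5 lie near 0 in all 4.

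The comparison asks whether cells given FABP4 hold other levels of these transcripts than cells given DMSO. Differences were tested with limma on log2(FPKM + 1) over all 12490 genes that reached 1 FPKM in at least 2 libraries, and fold changes on that scale understate the change of low genes. Of the 10 genes 6 were tested (ADAMTS1, ADAMTS6, ADAMTS7, ADAMTS12, ADAMTS15 and ADAMTS16), each at 1 FPKM or more in every library, and the other 4 are given as levels only. In limma 0 of the 6 passed an adjusted p of 0.05, where 0.592% of all tested genes did, and 1, ADAMTS12, had an unadjusted p under 0.05, as did 9.68% of tested genes. In the authors' deposited table, made with DESeq2, 0 of the 10 had a q under 0.05, as did 0.655% of the genes with a q, and ADAMTS1, ADAMTS6 and ADAMTS12 had an unadjusted p under 0.05, as did 5.82% of the genes with a p. Both FABP4 libraries lay below both DMSO libraries for 3 of the 6 (ADAMTS1, ADAMTS6 and ADAMTS12), against 16.1% of tested genes, and above them for 1 (ADAMTS15), against 20.7%. Groups that did not overlap were common in these data, at 36.9% of all tested genes. The tested ADAMTS genes had a median log2 fold change of -0.19, with 5 of 6 below 0, beside a median of 0.014 and 46.0% below 0 over all genes tested. In bulk RNA, fewer cells that express a gene and less of its RNA per cell cannot be told apart.

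ADAMTS12 (gene ID 81792, chr5:33523535-33892192, GRCh38, minus strand), the most abundant of the 10, had the smallest unadjusted p, and the lowest fold change of the 6 on the log2(FPKM + 1) scale; by ratio of means ADAMTS1 was slightly lower. Its level was 8.98 FPKM in FABP4 replicate 1 and 10.56 FPKM in FABP4 replicate 2, against 13.89 FPKM in DMSO replicate 1 and 13.05 FPKM in DMSO replicate 2; replicates keep this order in all values given in pairs. Both FABP4 libraries lay below both DMSO libraries, and the means of 9.77 ± 1.12 FPKM with FABP4 and 13.5 ± 0.594 FPKM with DMSO (SD, n = 2 each) stood in a ratio of 0.725. The log2 fold change was -0.43 with an SE of 0.12 and a 95% interval of -0.69 to -0.17 (limma unadjusted p = 0.00259, adjusted p = 0.14), so the difference did not pass over all genes. Without FABP4 replicate 1 it was -0.32 (limma unadjusted p = 0.0625, the lone FABP4 library being assumed to vary like the DMSO libraries), and with each other library left out it ran from -0.535 to -0.39. The authors' deposited table gives ADAMTS12 a log2 fold change of -0.30, a p of 0.00701 and a q of 0.345. At the estimated depths these levels rest on about 943 to 1530 fragments in a library, a counting error of 2.56% to 3.26%.

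ADAMTS7 (gene ID 11173, chr15:78759203-78811431, minus strand), which shares its domain plan with ADAMTS12, had 6.07 and 7.52 FPKM with FABP4 against 8.09 and 6.82 FPKM with DMSO. The groups overlapped, and the log2 fold change of -0.12 had a 95% interval of -0.40 to 0.16 (limma adjusted p = 0.904). Its sign rested on 1 library: leaving out FABP4 replicate 1 gave 0.015 on the log2 scale, and leaving out DMSO replicate 1 gave -0.011, with the sign kept. Of 60 windows of 50 bases along its transcript 11 (18.3%) also occur in the pseudogenes ADAMTS7P1, ADAMTS7P3 and ADAMTS7P4, so its level is uncertain. The gene overlaps MORF4L1 on the other strand, and whether the counting used strand is not given in the sources used here.

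Among the versican- and aggrecan-cutting relatives, ADAMTS1 had lower values and ADAMTS15 slightly higher ones with FABP4, neither past the threshold. ADAMTS1 (gene ID 9510, chr21:26835747-26845409, minus strand) had 1.15 and 1.17 FPKM with FABP4 against 1.59 and 1.65 FPKM with DMSO, a ratio of means of 0.716. The replicates of each condition lay close together and the groups did not overlap, but the levels rest on only about 65.7 to 107 fragments, a counting error of 9.69% to 12.3% per library. The log2 fold change was -0.28, with a 95% interval of -0.585 to 0.028 (limma adjusted p = 0.583), and the authors' deposited table gives -0.52 with a p of 0.0381 and a q of 0.774. ADAMTS15 (gene ID 170689, chr11:130448974-130476641, plus strand) had 5.38 and 6.20 FPKM with FABP4 against 5.12 and 5.08 FPKM with DMSO. Both FABP4 libraries lay above both DMSO libraries, replicate 1 by little, and the log2 fold change was 0.15 with a 95% interval of -0.11 to 0.42 (limma adjusted p = 0.829). Leaving out FABP4 replicate 1 gave 0.239, and leaving out FABP4 replicate 2 gave 0.065. ADAMTS9 (gene ID 56999, chr3:64515654-64688000, minus strand) had 0.51 and 0.76 FPKM with FABP4 against 0.59 and 0.64 FPKM with DMSO, so the DMSO libraries lay inside the range of the FABP4 libraries. On the other strand it overlaps ADAMTS9-AS1 and ADAMTS9-AS2.

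For ADAMTS4 and ADAMTS5, the main aggrecanases, the libraries held no more than a few fragments. ADAMTS4 (gene ID 9507, chr1:161184308-161199056, minus strand) had 0.01 and 0.05 FPKM with FABP4 against 0.02 and 0.01 FPKM with DMSO, about 1.17 to 5.43 fragments in a library. ADAMTS5 (gene ID 11096, chr21:26917912-26966513, minus strand) was listed at 0 in both FABP4 libraries and in DMSO replicate 1, and at 0.01 FPKM in DMSO replicate 2. That value is about 1.15 fragments, so a fall with FABP4, or a small difference either way, in either aggrecanase was not detectable at this depth. On chromosome 21 ADAMTS1 and ADAMTS5 are neighbours 72502 bases apart on the same strand with 0 protein-coding genes between them, yet ADAMTS1 stood above 1 FPKM in every library. On chromosome 11 ADAMTS8, named after its values were seen and listed at 0 in all 4 libraries, lies 19980 bases from ADAMTS15 on the opposite strand.

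The fibrillin- and fibronectin-linked genes differed in how close their replicates lay. ADAMTS6 (gene ID 11174, chr5:65148736-65481920, minus strand) had 3.18 and 3.70 FPKM with FABP4 against 4.30 and 4.38 FPKM with DMSO, a ratio of means of 0.793. The groups did not overlap, and the log2 fold change of -0.27 had a 95% interval of -0.54 to 0.006 (limma unadjusted p = 0.0545, adjusted p = 0.532). It was -0.18 without FABP4 replicate 1, and the authors' deposited table gives -0.34 with a p of 0.0351 and a q of 0.752. ADAMTS16 (gene ID 170690, chr5:5140330-5320304, plus strand) had 1.60 and 2.65 FPKM with FABP4 against 2.14 and 2.22 FPKM with DMSO. The FABP4 libraries lay on either side of the DMSO libraries, and the log2 fold change of -0.046 (95% interval -0.39 to 0.29, limma adjusted p = 0.983) became 0.20 without FABP4 replicate 1 and -0.29 without FABP4 replicate 2. ADAMTS17 (gene ID 170691, chr15:99971589-100342005, minus strand) had 0.42 and 0.64 FPKM with FABP4 against 0.43 and 0.70 FPKM with DMSO, and its groups overlapped.

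**Figure D2:**
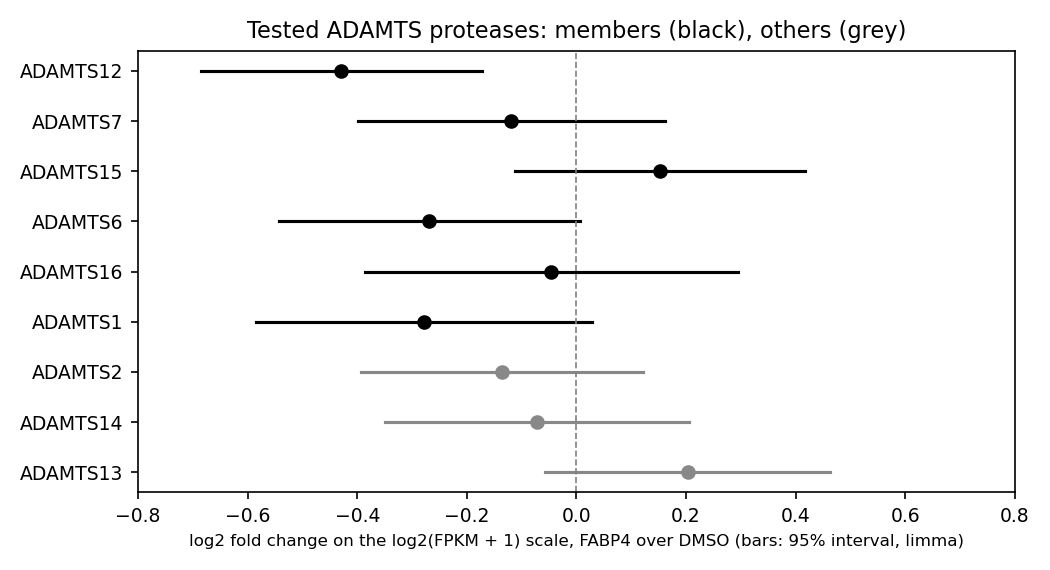
Log2 fold change, FABP4 over DMSO, on the log2(FPKM + 1) scale along the horizontal axis for the 6 tested ADAMTS genes described here (black) and 3 other tested ADAMTS proteases (grey); points are limma estimates from 2 libraries in each condition and bars are 95% intervals, not adjusted over genes. Of the 9 intervals, that of ADAMTS12 alone lies wholly below 0.

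The FABP4 libraries differed from each other in one direction across the family. All 6 tested genes, and 9 of the 10, were higher in FABP4 replicate 2 than in FABP4 replicate 1, as were 47.6% of all tested genes. FABP4 replicate 1 held the lowest level of 5 of the 6 tested genes, all but ADAMTS15, against 19.3% of all tested genes. Transcript length moved with this gap between the FABP4 libraries: 28.5% of tested genes with a transcript under 2000 bases were higher in replicate 2, 48.9% of those of 2000 to 3999 bases and 60.9% of those of 4000 bases and more. The transcripts of the 10 ADAMTS genes were 4979 (ADAMTS16) to 9773 bases (ADAMTS4) long. The median difference of replicate 2 minus replicate 1 in the longest class was 0.042 between the FABP4 libraries and 0.089 between the DMSO libraries on the log2 scale. Between conditions, the median log2 fold change was 0.018, 0.016 and 0.009 in the same length classes, from short to long. The part of length in the ADAMTS levels was not tested.

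Summed over the 10 genes, the level was 27.30 and 33.25 FPKM with FABP4 against 36.17 and 34.56 FPKM with DMSO. Both FABP4 sums lay below both DMSO sums, with a ratio of means of 0.856. ADAMTS12 made up 32.9% and 31.8% of the sum with FABP4 against 38.4% and 37.8% with DMSO, the largest share in every library. ADAMTS15 made up 19.7% and 18.6% with FABP4 against 14.2% and 14.7% with DMSO. Neither share overlapped between conditions. The same held for ADAMTS1 and ADAMTS6, with lower shares with FABP4, and for ADAMTS9, with a higher share. The ADAMTS9 shares were 1.87% and 2.29% with FABP4 against 1.63% and 1.85% with DMSO, although its FPKM overlapped between conditions. Separation of this kind was common, as the FPKM groups of 36.9% of all tested genes did not overlap. Shares of 1 sum are tied to each other. The 10 genes together made up 28.2% of the summed level of all 19 ADAMTS proteases in each FABP4 library, against 30.6% and 30.1% in the DMSO libraries.

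**Figure D3:**
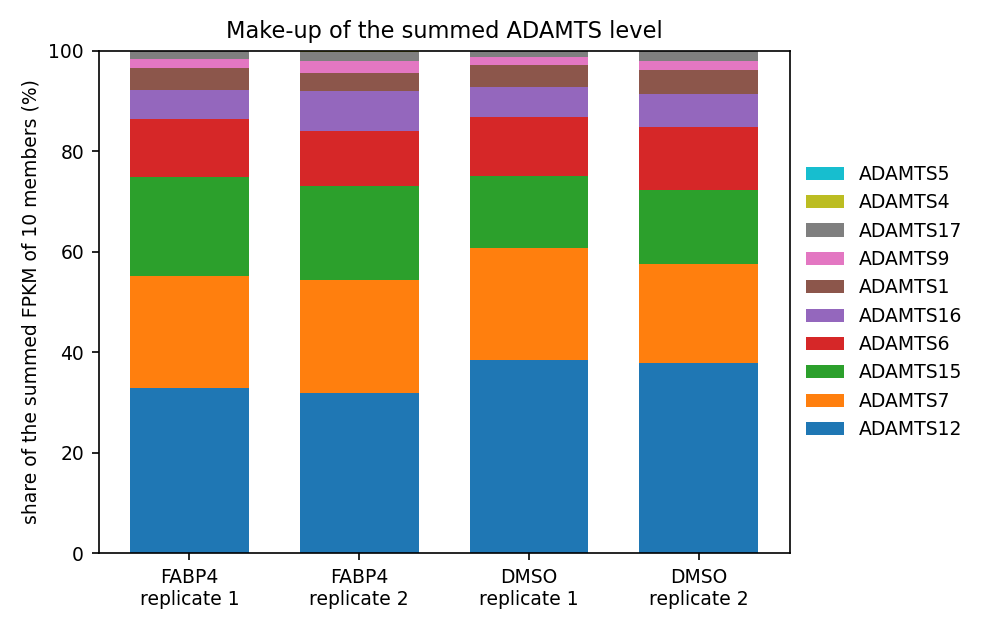
Share of each ADAMTS gene in the summed FPKM of the 10 genes (vertical axis, percent) in each library (horizontal axis, FABP4 replicates left, DMSO replicates right). The lowest segment, ADAMTS12, takes 31.8% to 32.9% with FABP4 and 37.8% to 38.4% with DMSO, and ADAMTS4 and ADAMTS5 are too thin to see.

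Promoters are shown for ADAMTS12 and ADAMTS6, which had lower values with FABP4 without overlap and an entry in the RefSeq promoter table (GRCh38.p14). That table matched 4 of the 10 genes (ADAMTS6, ADAMTS7, ADAMTS12 and ADAMTS17) and did not match ADAMTS1, ADAMTS4, ADAMTS5, ADAMTS9, ADAMTS15 and ADAMTS16. Each sequence runs 5′ to 3′ from 250 bases before the RefSeq start to 50 bases after it. Capitals mark matches on either strand to the AP-1 motif TGANTCA, the CRE core TGACGT and the GC box GGGCGG; the TATA motif TATAAA and the RUNX motif TGTGGT were searched too and had no match in either sequence.
ADAMTS12 (chr5:33891941-33892240, minus strand): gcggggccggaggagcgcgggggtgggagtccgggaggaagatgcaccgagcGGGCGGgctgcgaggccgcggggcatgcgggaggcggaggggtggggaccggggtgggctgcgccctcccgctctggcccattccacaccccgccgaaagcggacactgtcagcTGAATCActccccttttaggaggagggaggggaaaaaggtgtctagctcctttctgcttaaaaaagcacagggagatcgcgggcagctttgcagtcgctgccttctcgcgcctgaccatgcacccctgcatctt
ADAMTS6 (chr5:65481871-65482170, minus strand): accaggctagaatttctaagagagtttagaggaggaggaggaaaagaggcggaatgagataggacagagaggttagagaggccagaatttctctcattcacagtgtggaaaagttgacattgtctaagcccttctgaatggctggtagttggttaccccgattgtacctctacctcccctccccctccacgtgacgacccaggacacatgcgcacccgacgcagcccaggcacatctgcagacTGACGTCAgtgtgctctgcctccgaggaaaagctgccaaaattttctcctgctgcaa
The ADAMTS12 sequence held 1 AP-1 match, TGAATCA, first base at -84, and 1 GC box at -198. Of all 35116 RefSeq promoters of that length, 7.71% held an AP-1 match and 45.0% a GC box. GENCODE 29 places the start of ADAMTS12 202 bases farther upstream, so by that annotation both matches lie downstream of the start, within the gene. The ADAMTS6 sequence held a CRE palindrome that counts as 2 overlapping matches, one on each strand, with the core at -7. A CRE core occurred in 7.98% of all promoters, a TATA match in 11.5% and a RUNX match in 13.1%. ADAMTS7, whose levels overlapped between conditions, held 7 GC boxes and had a GC content of 74.3%, against 67.0% in ADAMTS12, 52.0% in ADAMTS6 and a median of 58.7% over all promoters. A match is a description of letters and shows no binding.

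The other 9 ADAMTS proteases held the most abundant and some of the least abundant of the family. ADAMTS2, which trims the amino end of fibrillar procollagens, had 35.67 and 41.53 FPKM with FABP4 against 43.26 and 41.54 FPKM with DMSO (log2 fold change -0.14, limma adjusted p = 0.853). The groups lay apart by 0.01 FPKM at the nearest. ADAMTS14, another procollagen N-proteinase, named after its values were seen, had 25.61 and 33.52 FPKM with FABP4 against 31.13 and 30.60 FPKM with DMSO, and its groups overlapped. ADAMTS13, which cuts von Willebrand factor, had 7.97 and 9.34 FPKM with FABP4 against 7.26 and 7.48 FPKM with DMSO (log2 fold change 0.20, limma adjusted p = 0.682). Of these 9 genes 3 were tested and 0 passed, and the other 6 stayed under 1 FPKM in every library.

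Genes that act on or with the ADAMTS proteases were set beside them in 7 lists holding 77 genes, of which 52 were tested. In limma 1 of the 52 passed, FOS, against 0.592% of all tested genes, and 7 had an unadjusted p under 0.05, against 9.68%. The authors' deposited table gives a q under 0.05 to 3 of the 77, THBS1, TIMP3 and FOS, against 0.655% of genes with a q. Median log2 fold changes of the lists lay between -0.093 (transcription regulators, 8 of 14 below 0) and 0.078 (ADAMTS-like genes and papilin, 1 of 4 below 0), beside the 0.014 of all genes tested. Of 4 tested ADAMTS-like genes, which lack the protease domain, 0 passed in limma. ADAMTSL4 had 5.18 and 6.31 FPKM with FABP4 against 4.92 and 3.96 FPKM with DMSO (log2 fold change 0.31, limma unadjusted p = 0.0364, adjusted p = 0.458), and THSD4 had 4.18 and 4.21 FPKM with FABP4 against 4.81 and 4.83 FPKM with DMSO (limma adjusted p = 0.796).

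Among 9 tested substrates of the family 0 passed in limma. A log2 fold change under 0 was found for 8 of the 9 (median -0.072), against 46.0% of all tested genes. Apart from THBS1 and BGN, the groups of these tested substrates overlapped. THBS1, the gene of the matrix protein thrombospondin, had 85.38 and 99.63 FPKM with FABP4 against 122.12 and 125.14 FPKM with DMSO. The groups did not overlap, and the log2 fold change of -0.42 had an adjusted p of 0.193 in limma, while the authors' deposited table gives it -0.46 and a q of 0.000579. BGN, the gene of the small proteoglycan biglycan, had 22.21 and 21.48 FPKM with FABP4 against 28.54 and 24.90 FPKM with DMSO (log2 fold change -0.28, limma adjusted p = 0.439). Named after their values were seen, ACAN, the aggrecan gene, had 2.53 and 3.69 FPKM with FABP4 against 3.29 and 2.88 FPKM with DMSO, and VCAN, the versican gene, did not exceed 0.30 FPKM in any library.

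Of 6 tested inhibitor and clearance genes 0 passed in limma. TIMP3 had 67.01 and 65.17 FPKM with FABP4 against 82.91 and 80.67 FPKM with DMSO, a ratio of means of 0.808. The groups did not overlap, and the log2 fold change of -0.30 had a 95% interval of -0.56 to -0.05 (limma unadjusted p = 0.0216, adjusted p = 0.356); the authors' deposited table gives it -0.35 and a q of 0.0179. A2M, the gene of a plasma protease trap, had 3.21 and 4.16 FPKM with FABP4 against 3.03 and 3.24 FPKM with DMSO (limma adjusted p = 0.817).

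Maturation and secretion genes numbered 8 tested, and 0 passed in limma. SDC1, a syndecan gene, had 44.66 and 43.86 FPKM with FABP4 against 54.35 and 53.71 FPKM with DMSO (log2 fold change -0.28, limma adjusted p = 0.401), and FURIN, the convertase gene, had 57.67 and 58.82 FPKM with FABP4 against 67.35 and 61.94 FPKM with DMSO (log2 fold change -0.15, limma adjusted p = 0.825). In the list of aggrecanase inducers and their receptors 9 genes were tested, mostly receptor genes and an antagonist gene, and 0 passed in limma. TGFBR1 had the smallest p, at 5.55 and 5.29 FPKM with FABP4 against 5.46 and 6.50 FPKM with DMSO (limma adjusted p = 0.901). IL6ST followed (limma adjusted p = 0.963). Named after their values were seen, the cytokine genes IL1A, IL1B, TNF, OSM and IL6 stayed under 1 FPKM in every library and were not tested. Among them IL1B had 0.26 and 0.43 FPKM with FABP4 against 0.76 and 0.69 FPKM with DMSO, and the groups of the others overlapped. The cytokine gene TGFB1, likewise named after its values were seen, was well above these and was tested. It had 212.43 and 203.74 FPKM with FABP4 against 229.49 and 172.81 FPKM with DMSO, with overlapping groups (limma adjusted p = 0.972). Of 14 tested transcription regulators 1 passed in limma, the AP-1 subunit gene FOS, while 6 had a log2 fold change above 0. Levels of FOS were 28.86 and 27.96 FPKM with FABP4 against 10.19 and 7.60 FPKM with DMSO (log2 fold change 1.58, limma adjusted p = 1.25e-05). FOS was not called when low genes were tested too, with no filter or one at 0.1 FPKM, where limma called 0 genes in all.

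**Figure D4:**
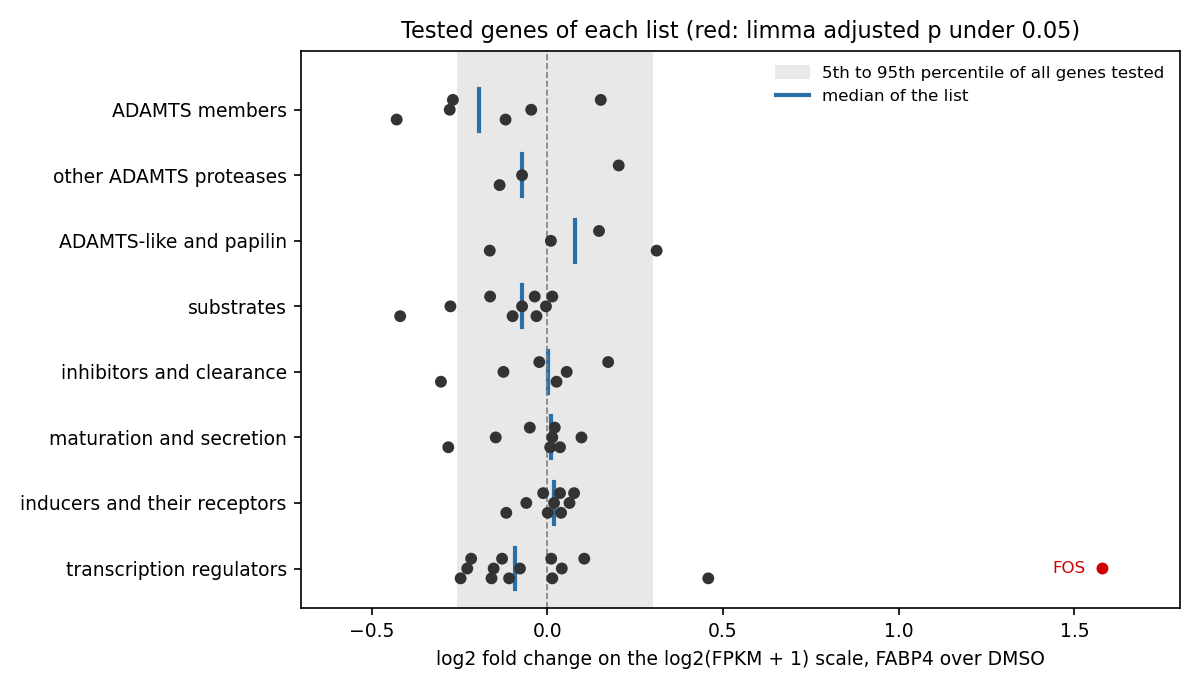
Log2 fold change, FABP4 over DMSO, on the log2(FPKM + 1) scale (horizontal axis) for each tested gene of the ADAMTS members and of 7 lists of related genes (rows); points are genes, blue lines are list medians, and the grey band spans the middle of all genes tested. FOS, in red, is the single gene past the adjusted limma threshold.

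ADAMTS12 was also set beside the genes whose levels were most like its own over the 4 libraries, by Euclidean distance on the log2(FPKM + 1) scale. The nearest were SLC19A1 (distance 0.0572), FADS2 (0.0803) and LOC112694756 (0.108). SLC19A1, a folate transporter gene, had 9.36 and 10.60 FPKM with FABP4 against 13.86 and 13.23 FPKM with DMSO. With 4 libraries such likeness is a description only.

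As for the samples themselves, the estimated depth was 11450000 to 13175000 fragments per library, and log2 levels over tested genes correlated with r = 0.991 to 0.994 between any 2 libraries, genes not being independent replicates. Fewer than 1 FPKM in each of the 4 libraries was listed for 10 of 14 chondrocyte markers, including COL2A1, the collagen of cartilage, at 0.05 FPKM or less. The tested chondrocyte markers were ACAN, SOX9 and COL11A2, and they differed in direction: SOX9 had 8.81 and 9.98 FPKM with FABP4 against 11.34 and 11.29 FPKM with DMSO, and COL11A2 had 3.96 and 4.0 FPKM with FABP4 against 3.07 and 2.78 FPKM with DMSO (limma adjusted p = 0.531 and 0.326). The summed level of the 14 markers was 17.1 and 20.1 FPKM with FABP4 against 20.3 and 19.9 FPKM with DMSO. Of 9 fibroblast markers 3 (THY1, LUM and DCN) stayed under 0.4 FPKM, while COL1A1 led with 793.6 and 1123.74 FPKM with FABP4 against 1048.37 and 913.53 FPKM with DMSO. The list summed to 1220 and 1690 FPKM with FABP4 against 1550 and 1380 FPKM with DMSO. Its smallest p was that of PDGFRA, at 3.75 and 4.30 FPKM with FABP4 against 2.88 and 2.97 FPKM with DMSO (limma adjusted p = 0.315). Of the 6 tested fibroblast markers 2 had a log2 fold change above 0 and 4 below. Of 5 macrophage markers CD14, CD163 and PTPRC reached at most 0.41 FPKM. At these low levels CD14 had 0.30 and 0.41 FPKM with FABP4 against 0.15 and 0 FPKM with DMSO. PTPRC had 0.04 and 0.08 FPKM with FABP4 against 0 and 0.03 FPKM with DMSO, so both genes lay higher with FABP4. CD163 had overlapping groups, as did CD68 at 145.46 to 169.19 FPKM. CSF1R lay lower with FABP4, at 2.42 and 2.06 FPKM against 3.67 and 3.45 FPKM with DMSO (limma adjusted p = 0.126). Of 5 epithelial markers EPCAM, CDH1 and KRT19 reached at most 0.32 FPKM, and the keratin genes KRT8 and KRT18 had 30.21 to 38.12 and 61.86 to 74.93 FPKM. ADIPOQ, which defines adipocytes, was listed at 0 in all 4 libraries, with 4 of 6 adipocyte markers under 1 FPKM throughout, and all 4 endothelial markers reached at most 0.37 FPKM. In limma 0 of the tested markers passed, and their part in the ADAMTS levels was not tested.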

How the data were processed

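The authors deposited 1 table with FPKM values for each of the 4 libraries, and, per the file headers, a DESeq2 comparison (log2 fold change, p-value, adjusted q-value). The sign of that log2 fold change is positive where FABP4 is higher: it matched that of the FPKM for 99.7% of the tested genes with an unadjusted limma p under 0.05. Bowtie2 2.2.5, RSEM 1.2.12, DESeq2 1.4.5 and GRCh38.p13 are named without roles, per the submitters' processing notes. Which annotation, filters and strand setting were used is not given in the sources used here.

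Groups come from the treatment labels. After adding a pseudocount of 1 and taking log2, the genes that reached 1 FPKM in 2 or more libraries were fitted with limma 3.58.1 in R 4.3.3 (condition only, variance trend, two-sided, Benjamini-Hochberg over 12490 genes). The fit was tested on simulated data. An exact permutation test of 2 libraries against 2 cannot go below p = 0.333, so none was used. Depth was estimated from low FPKM of single-exon genes, taken as whole multiples of 1 fragment (mean fragment length fitted at 290 bases). Only depths within a preset range were scored, so the estimate could not fall outside it, and the fragment numbers and counting errors rest on that range. Fragment numbers use the transcript with the longest coding sequence and are approximate, and counting errors cover counting only. Gene coordinates are those of GENCODE 29 on GRCh38, and shared sequence was looked up in its transcripts. Promoters are from RefSeq.

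The members and lists were chosen with earlier results of these data known. Named are the 10 genes and, of each list, its called genes (at most 4) or else the 2 with the smallest p; genes outside this rule are marked where they appear, except the cell type markers. The alternatives were other scaling, pseudocount, filters and variance moderation, a replicate block and each library left out.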

Additional observations from a re-analysis of the deposited data

How the results depend on the processing

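The ADAMTS genes gave 0 limma calls under each of the 10 alternatives chosen first, and ADAMTS1, ADAMTS6, ADAMTS12 and ADAMTS15 kept their sign in all 10. The log2 fold change of ADAMTS12 ran from -0.535 to -0.32 (limma adjusted p = 0.128 to 0.649). With a library left out, ADAMTS7 ran from -0.254 to 0.015 and ADAMTS16 from -0.29 to 0.199, both positive without FABP4 replicate 1; the cause was not tested. Over all genes limma made 74 calls, against 47 with the replicate block, 0 without a filter and 0 with the filter at 0.1 FPKM (both of which test more low genes), and 49 to 150 with a library left out (FABP4 replicate 1 gave the 150, DMSO replicate 1 gave 123, and DMSO replicate 2 gave the 49). Such fits assume that the lone library of a condition varies like the other condition. Of the related genes, FOS was the single call, and 0 were called without a filter or with the filter at 0.1 FPKM. The replicate numbers share no stated source: the difference between replicates 2 and 1 correlated with r = -0.119 across genes between conditions. A crossed pairing, chosen after seeing the data, gave 418 calls over all genes, 1 ADAMTS gene (ADAMTS12) and 2 related genes. The median-of-ratios scaling shifted the median of all genes by -0.0162 on the log2 scale. Depth limits ADAMTS4 and ADAMTS5, at up to 5.43 fragments in a library, and ADAMTS9 and ADAMTS17, at 30.8 to 63.8.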
